A study of Mus musculus with 24 samples.

Results

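The glycolysis and hypoxia response genes examined here are 38 mouse genes listed by name. By role they comprise glucose uptake and phosphorylation (3 genes), upper glycolysis (7), lower glycolysis (6), lactate production and export (4), switches of glycolytic flux and pyruvate use (5), oxygen sensors and the alpha subunits of hypoxia-inducible factor (4), acid-base balance and collagen hydroxylation (4) and other hypoxia-inducible genes (5). Each gene was looked up by its Ensembl identifier among the 39017 identifiers of the count files. A gene was tested where its mean over the 24 libraries was at least 5 counts, which left 14361 genes, 35 of the 38 members among them. Aldoc (mean 3.13 counts), Epas1 (0.625) and Car12 (0.292) had too few counts, and the tested members nearest the threshold were Slc16a3 (19.3), Car9 (22.1) and Ankrd37 (26.9).

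Polyadenylated RNA was sequenced from NIH 3T3 cells, an immortalised mouse embryonic fibroblast line, in 24 libraries, 3 for each of 8 groups. Every library came from a stable pool made with a pBabeNeo retrovirus and G418 selection. EV carried the empty vector, and EVsub was the empty vector in cells labelled sub-confluent. TAZ4SA and YAP5SA expressed TAZ or YAP with the serines that LATS kinases phosphorylate changed to alanine. TAZ-CAMTA1 and YAP-TFE3 expressed the fusion proteins of epithelioid haemangioendothelioma, and the TFE3 and CAMTA1 groups expressed the full-length partner proteins. Constructs carried Flag tags. Cells were collected 48 h after reaching confluence, except CAMTA1 and EVsub, so EVsub served as the control of CAMTA1 and EV as that of the other constructs. As a model the pools have limits: expression comes from a retrovirus in a single cultured mouse line, and no group was labelled as grown in low oxygen.

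Cells take up glucose, split it through glycolysis and either oxidise the pyruvate in mitochondria or reduce it to lactate and export it. Hypoxia-inducible factor pairs an oxygen-labile alpha subunit with a stable partner; prolyl hydroxylases use oxygen to mark the alpha subunit for destruction. Its target genes include most glycolytic enzymes, the glucose transporter Slc2a1, pyruvate dehydrogenase kinases and its own hydroxylase Egln3, and much of its control lies in the protein, which RNA counts do not measure.

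Libraries held 16471181 to 30132586 counts, of which members made up 0.543 to 0.884%. Both the series text and the published methods describe triplicates for each construct, and by the methods each came from its own transduction and selection. No pair of libraries within a group was as close as counting noise alone would make it (chi-square per degree of freedom 5.49 to 112). P-values here measure differences between groups against the spread among 3 separately made pools of each group, all of this cell line. TAZ4SA held the pair of libraries least alike within a group: its chi-square per degree of freedom was 38.8 between replicates 1 and 2, 62.7 between 1 and 3 and 112 between 2 and 3. Replicate 2 had the fewest counts of all 24, the largest share of counts in its 50 most abundant genes (24.2%) and a scaling factor of 0.81, against 0.93 in replicate 1 and 1.04 in replicate 3.

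Scaling used the trimmed mean of M values (TMM), whose factors were 0.77 to 0.83 in YAP5SA and 1.04 to 1.06 in EV. Without those factors, on total counts alone, the median log2 fold change of all tested genes moved from 0.01 to -0.36 in YAP5SA against EV, from 0.05 to -0.12 in TAZ4SA against EV, from 0.05 to 0.41 in YAP-TFE3 against YAP5SA, from 0.00 to 0.17 in TAZ-CAMTA1 against TAZ4SA and from -0.05 to -0.25 in YAP5SA against TAZ4SA. All changes are therefore relative to the other genes of the same cells. A lower value may mean fewer cells of a type or less RNA per cell, which these counts cannot tell apart.

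All 8 fibroblast markers checked were above a mean of 5 counts, with Fn1 the most abundant. CPM are counts scaled to a common library total. For the marker sums of this paragraph the TMM factors were left out, while CPM in later paragraphs include them. Group differences in these sums therefore also hold the group differences in scaling factors. The summed CPM of the fibroblast markers were 36682 to 40000 in EV and 25151 to 35845 in EVsub. In TAZ4SA they were 20040 to 21157 and in YAP5SA 23229 to 25650. They were 38364 to 45245 in TAZ-CAMTA1, 41910 to 53767 in YAP-TFE3, 30927 to 34761 in TFE3 and 20467 to 29387 in CAMTA1. Epithelial markers summed to at most 1.06 CPM in any library. Endothelial ones summed to 2.45 to 4.69 in EV, 0.402 to 0.571 in EVsub, 0.404 to 0.564 in CAMTA1 and up to 11.3 in TAZ4SA. Muscle markers reached 0.178 in EV and 7.19 in TAZ4SA, adipocyte ones 1.85 and 10.2. Of 4 leukocyte markers, Ptprc and Cd3e were below a mean of 5 counts; the list, led by Cd68, summed to 3.20 to 4.55 CPM in EV, 16.3 to 60.4 in TAZ4SA and 68.4 to 108.3 in YAP5SA. Protein-coding genes of the mitochondrial genome made up 3.74 to 4.02% of counts in EV, 2.71 to 3.13% in EVsub, 2.86 to 3.13% in TAZ4SA, 2.005 to 2.20% in YAP5SA and 4.604 to 5.77% in TFE3. Marker lists and this share thus moved with the groups, and their part in the results below was not tested.

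Counts cannot always be assigned to a single gene. The libraries were stranded, but the sources used here do not state whether strand was used for the deposited counts, and exons of some members overlap genes on the opposite strand. These are Slc2a1 (Gm12868), Hk1 (Hk1os), Gpi1 (Gm26762), Pfkm (Senp1), Pfkp (Pitrm1), Aldoa (Fam57b), Tpi1 (Spsb2), Gapdh (Iffo1), Hif1a (Gm15283), Car9 (Gm12454), Bnip3 (Gm45507), Ankrd37 (Lrp2bp and Ufsp2), Ndrg1 (Gm17035 and Gm2895) and Higd1a (Gm47112). On the same strand Pfkm overlaps Gm26513, Pkm Gm49759 and Hif1a Gm49321. Of all 75-base windows in annotated transcripts, Pgk1 shared 52.8% with other genes, Pgam1 34.9%, Bnip3 34.4%, Eno1 23.0%, Gapdh 22.6%, Higd1a 22.0%, Pkm 17.8%, Ankrd37 13.3%, Ldhb 12.6% and Gpi1 10.8%; every other member shared under 10%. Values of all these members carry that uncertainty.

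Per kilobase of exon, Pdk4 had the highest mean in EV (281 CPM per kb, SD 102), then Pkm (218, SD 13.6), Aldoa (207, SD 12.6), Pgk1 (175, SD 31.9) and Tpi1 (147, SD 17.8). Given these spreads, the order of neighbours is not firm. Ldha (90.8), Ldhb (80.4) and Eno1 (57.2) followed after Pgam1 (90.8). Counts on genes elsewhere that share sequence with a member are left out of these levels. Slc2a1 stood 14th (24.6) and Gapdh 24th (9.29), with Pfkfb3 (1.32) and Pfkp (1.19) near the lower end of the tested members. Epas1 had 0 counts in EV, EVsub, TFE3 and CAMTA1, and a floor of 3 counts over a group corresponds to 0.0446, 0.0407, 0.0401 and 0.0370 CPM there. It had 10 counts over the YAP-TFE3 libraries, 3 in TAZ4SA and 1 each in YAP5SA and TAZ-CAMTA1. Car12 had 0 counts in those same 4 groups and in TAZ-CAMTA1 (floor 0.0421 CPM), 3 in TAZ4SA, 3 in YAP5SA and 1 in YAP-TFE3. Aldoc ranged from 1 count over the EV libraries to 25 over those of CAMTA1. Such floors cover counting error only, and the standard errors below cover counting error and library spread. Neither covers errors of assignment.

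**Figure D1:**
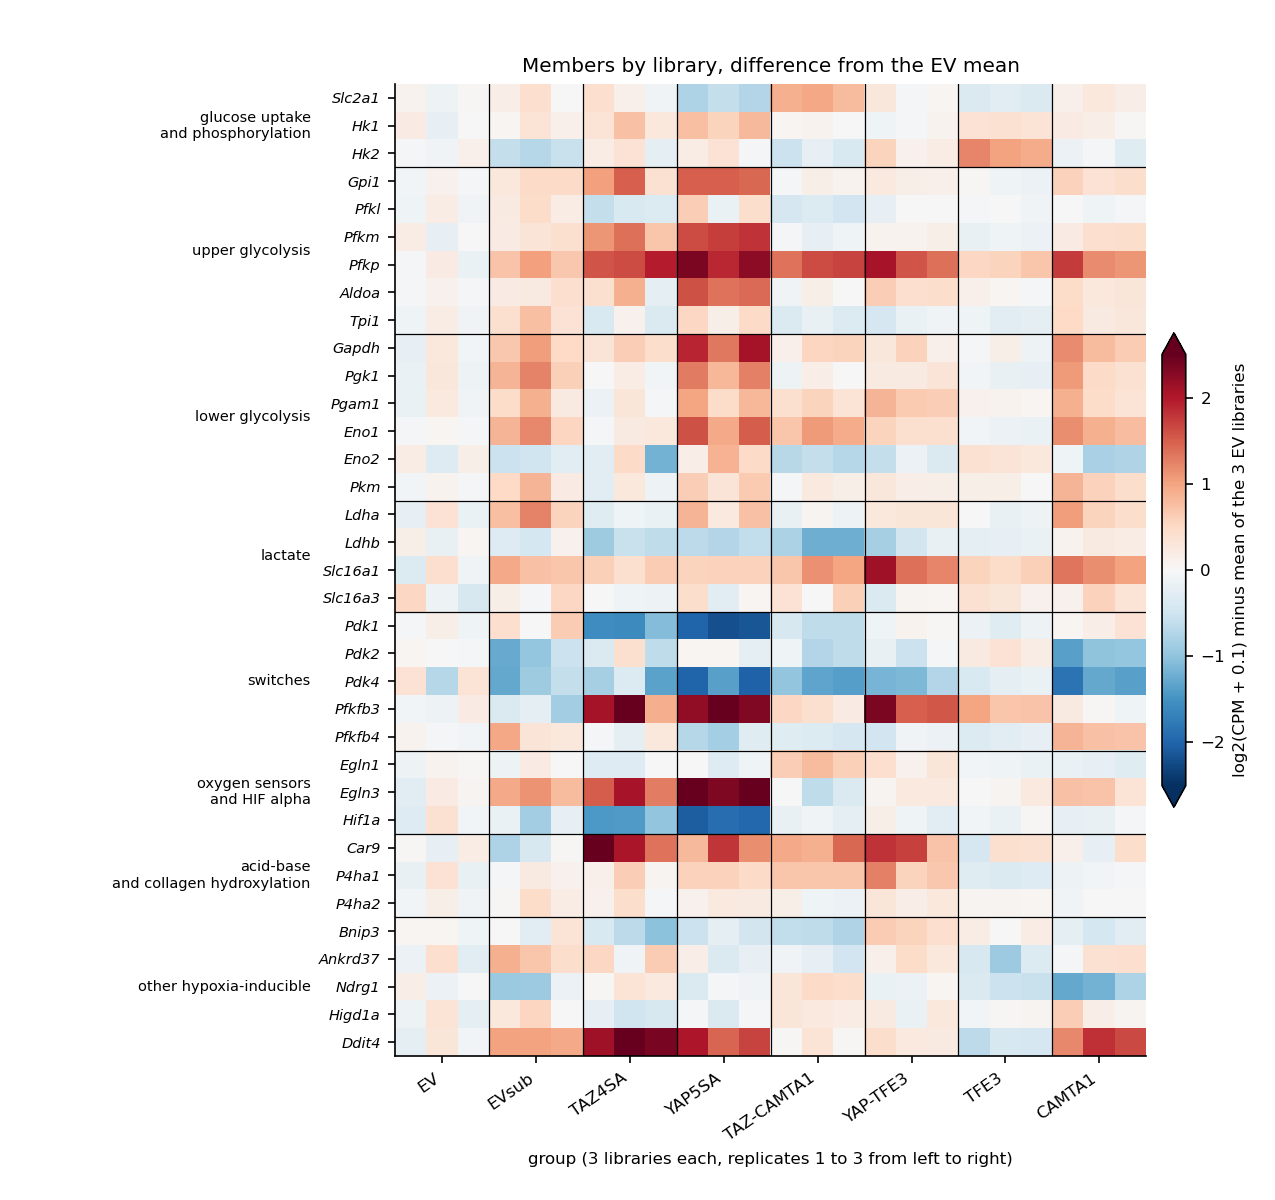
Log2 CPM of the tested members in each of the 24 libraries, relative to the mean of the EV libraries, ordered by role.

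Tests used edgeR quasi-likelihood on all 24 libraries in 1 fit, and a gene was called where its p adjusted by Benjamini-Hochberg over the 14361 tested genes was under 0.05. EVsub against EV had 16 of 35 members called (45.7%, beside 22.1% of all tested genes), 12 higher (12.5% of all) and 4 lower (9.59%), with a median log2 fold change of 0.29 for members and 0.02 for all. In TAZ4SA 17 were called against EV (48.6%, beside 57.5%), 11 higher (31.1%) and 6 lower (26.4%), median 0.12 beside 0.05. YAP5SA had 26 (74.3%, beside 71.2%), 19 higher (36.3%) and 7 lower (34.9%), median 0.52 beside 0.01. In TAZ-CAMTA1 the count was 12 (34.3%, beside 21.5%), 7 higher (12.5%) and 5 lower (8.98%), median 0.03 beside -0.00. YAP-TFE3 had 9 (25.7%, beside 15.3%), 7 higher (10.6%) and 2 lower (4.74%), median 0.20 beside 0.00. These 5 comparisons share the EV libraries, and the shares of members called in TAZ4SA and YAP5SA were near or below those of all tested genes.

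Only Hk2 was called in TFE3 against EV (2.86%, beside 3.38%), 1 higher (2.36% of all) and 0 lower (1.02%), with a median of -0.05 beside -0.02; leaving out EV replicate 2 brought the count to 2 (all genes called 283, beside 485). In CAMTA1 against EVsub edgeR called 0 members (2.18% of all tested genes, 1.29% higher and 0.891% lower), with a median of 0.02 beside -0.03. There the lowest edgeR adjusted p of a member was 0.0629 (Ddit4), and DESeq2 called 2, Ddit4 and Hk2 (all genes 636, beside 313 in edgeR). Leaving out CAMTA1 replicate 1 brought the edgeR count to 1 (all genes 118), total-count scaling to 1 (278) and dropping the filter on low counts to 3 (674). For TFE3 the count was 2 in DESeq2 (all genes 711), 3 without the filter (642) and 7 in a fit of the 2 groups alone (1512).

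Between constructs, TAZ-CAMTA1 against TAZ4SA had 17 members called (48.6%, beside 54.7%), 7 higher (26.6%) and 10 lower (28.1%), median -0.11 beside 0.00. YAP-TFE3 against YAP5SA had 20 (57.1%, beside 70.9%), 7 higher (36.4%) and 13 lower (34.5%), median -0.17 beside 0.05. For YAP5SA against TAZ4SA the count was 19 (54.3%, beside 42.4%), 13 higher (19.6%) and 6 lower (22.8%), median 0.25 beside -0.05. YAP-TFE3 against TAZ-CAMTA1 had 8 (22.9%, beside 11.6%), 6 higher (6.32%) and 2 lower (5.32%), median 0.23 beside 0.01; that count was 5 without TAZ-CAMTA1 replicate 2 and 4 without replicate 3 (all genes 835 and 899, beside 1671). Only-2-group fits gave 11 for TAZ-CAMTA1 against TAZ4SA (all genes 5491, beside 7854) and 10 for EVsub against EV (1683, beside 3173). Under total-count scaling the splits into higher and lower became 13 and 10 in YAP5SA against EV, 8 and 9 in TAZ4SA against EV, 15 and 9 in YAP-TFE3 against YAP5SA, 10 and 7 in TAZ-CAMTA1 against TAZ4SA, and 11 and 9 in YAP5SA against TAZ4SA. All genes called there were, in the same order, 10340, 8171, 10452, 7766 and 6591, beside 10220, 8253, 10184, 7854 and 6087 with TMM. Their split under that scaling is not given. Since that scaling also moved the median of all genes, the member splits are not read as particular to members. Without TAZ4SA replicate 2, the count was 18 in TAZ4SA against EV (all genes 7560, beside 8253), 16 in TAZ-CAMTA1 against TAZ4SA (6697, beside 7854) and 23 in YAP5SA against TAZ4SA (7210, beside 6087). Without replicate 3 these counts were 15, 19 and 18 (all genes 8878, 8658 and 4656).

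In TAZ4SA against EV, leaving out replicate 2 ended the calls of Aldoa and Gapdh and added those of Eno2 (-0.67, edgeR adjusted p = 0.0246), Pdk2 (-0.50, edgeR adjusted p = 0.0399) and Tpi1 (-0.37, edgeR adjusted p = 0.0374), all lower. Leaving out replicate 3 ended the calls of Gapdh, Pdk4 and Slc16a1 and added that of Egln1 (-0.33, edgeR adjusted p = 0.0194).

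Over the 7 comparisons with an empty vector group, 30 members were called at least once with all libraries and TMM scaling (85.7%, beside 85.4% of all tested genes). In both directions 5 were called (14.3%, beside 9.35%): Slc2a1, Hk2, Pfkl, Pfkfb4 and Bnip3. Without EV replicate 3, edgeR no longer called Pfkl in YAP5SA, Pfkfb4 in EVsub or Bnip3 in YAP-TFE3. By role, YAP5SA had all 6 tested upper-glycolysis members higher (median log2 fold change 1.47) and 5 of 6 lower-glycolysis members higher (0.95), where 36.3% of all tested genes were higher. Under total-count scaling edgeR no longer called Tpi1 (adjusted p = 0.934), Pfkl (0.842) and Pkm (0.286) there. TAZ4SA had 4 upper-glycolysis members higher and 1 lower (0.73), but 1 of 6 lower-glycolysis members called (0.04), beside 31.1% of all genes higher and 26.4% lower. Total-count scaling in edgeR ended the calls of Aldoa (adjusted p = 0.253) and Gapdh (0.261) and added Tpi1 as lower (0.017). EVsub showed 2 of 6 upper and 5 of 6 lower-glycolysis members higher (0.35 and 0.64), beside 12.5% of all genes. Total-count scaling added Gpi1 (edgeR adjusted p = 0.0284) and Pfkm (0.0477). Without EVsub replicate 2 edgeR no longer called Tpi1, Gapdh, Pgam1 and Pkm (all genes called 2098, beside 3173). Calls of Tpi1, Pgam1 and Pkm also ended without EV replicate 1 (all genes 2121) and without EV replicate 3 (1971). In YAP5SA against TAZ4SA 5 of 6 upper and 6 of 6 lower-glycolysis members were higher, beside 19.6% of all genes; the calls of Eno2 (edgeR adjusted p = 0.0545) and Gpi1 (0.0728) ended under total-count scaling.

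**Figure D2:**
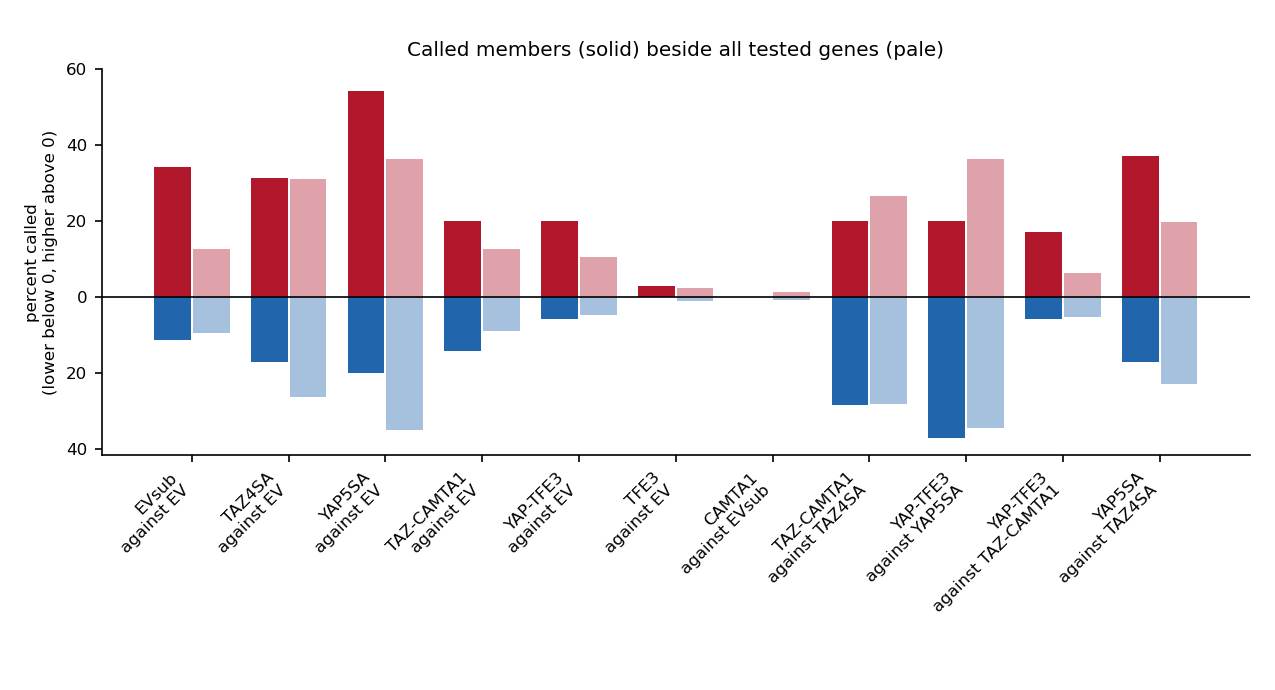
Share of members called higher and lower in each comparison, beside the same share of all tested genes.

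Slc2a1 (ENSMUSG00000028645, chromosome 4, 119108711 to 119137983; all coordinates are mm10) encodes the main glucose transporter of fibroblasts. Its libraries stood at 91.9, 78.9 and 88.2 CPM in EV, 50.3, 57.3 and 51.6 in YAP5SA, 115, 93.8 and 81.2 in TAZ4SA, 160.01, 168 and 149.7 in TAZ-CAMTA1 and 104, 82.9 and 89.5 in YAP-TFE3. YAP5SA was below EV and TAZ-CAMTA1 above it without overlap, while TAZ4SA and YAP-TFE3 overlapped EV. Slc2a1 fell in YAP5SA (log2 fold change -0.70, SE 0.12, edgeR adjusted p = 2.5e-05) and rose in TAZ-CAMTA1 (log2 fold change 0.88, SE 0.12, edgeR adjusted p = 1.4e-05). The direct comparisons were also called: edgeR gave Slc2a1 -0.87, SE 0.12, adjusted p = 1.4e-05 in YAP5SA against TAZ4SA, 0.72, SE 0.12, adjusted p = 4.1e-05 in TAZ-CAMTA1 against TAZ4SA and 0.80, SE 0.12, adjusted p = 5.3e-06 in YAP-TFE3 against YAP5SA. YAP-TFE3 was lower than TAZ-CAMTA1 (log2 fold change -0.79, SE 0.12, edgeR adjusted p = 1.2e-04).

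Hexokinases trap glucose by phosphorylation. Hk1 (ENSMUSG00000037012, chromosome 10, 62268855 to 62379908) was at 133, 101 and 117 CPM in EV, 147, 194 and 140.02 in TAZ4SA and 195, 172 and 203 in YAP5SA, both above EV without overlap. Hk1 rose in TAZ4SA (log2 fold change 0.46, SE 0.12, edgeR adjusted p = 0.00242; 0.30 and 0.0279 without TAZ4SA replicate 2) and YAP5SA (log2 fold change 0.70, SE 0.12, edgeR adjusted p = 1.9e-05); the TAZ4SA call ended in a fit of the 2 groups alone (0.0862). Here and below, brackets after a setting that ended or added a call hold the adjusted p of edgeR, or of DESeq2 where it is named, and a number before an adjusted p is the log2 fold change. It was lower in YAP-TFE3 than in YAP5SA (log2 fold change -0.72, SE 0.12, edgeR adjusted p = 1.4e-05) and in TAZ-CAMTA1 than in TAZ4SA (log2 fold change -0.42, SE 0.12, edgeR adjusted p = 0.00484). That last call ended in a fit of the 2 groups alone (0.0589), under total-count scaling (0.0643) and without TAZ4SA replicate 2 (0.0535).

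Hk2 (ENSMUSG00000000628, chromosome 6, 82725025 to 82774454), the inducible hexokinase, stood at 70.0, 67.6 and 79.2 CPM in EV, 47.6, 43.9 and 48.9 in EVsub, 168, 145 and 137 in TFE3 and 65.4, 70.0 and 58.6 in CAMTA1. TFE3 lay above EV and EVsub below it, each without overlap. Hk2 rose in TFE3 (log2 fold change 1.05, SE 0.15, edgeR adjusted p = 1.2e-04), a call kept under every alternative, and fell in EVsub (log2 fold change -0.63, SE 0.15, edgeR adjusted p = 0.00361). In CAMTA1 against EVsub it was not called by edgeR (log2 fold change 0.47, SE 0.15, edgeR adjusted p = 0.0955) and was called in DESeq2 (0.045), without the filter on low counts (0.0481) and under total-count scaling (0.0374). YAP-TFE3 (78.1 to 106 CPM) was higher than TAZ-CAMTA1 (49.3 to 62.7 CPM; log2 fold change 0.67, SE 0.15, edgeR adjusted p = 0.00366). TAZ-CAMTA1 was lower than TAZ4SA (61.4 to 92.3 CPM; log2 fold change -0.49, SE 0.15, edgeR adjusted p = 0.00705), a call that ended in a fit of the 2 groups alone (0.0552) and without TAZ4SA replicate 2 (0.0554). TFE3 and YAP-TFE3 were not compared directly. Per kilobase Hk2 made up a mean of 47.0% of the hexokinase sum of Hk1 and Hk2 in EV, 33.8% in EVsub and 58.9% in TFE3.

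The core of the sites bound by hypoxia-inducible factor reads ACGTG or GCGTG; these were searched on both strands of promoters, and CACGTG, the E-box bound by TFE3 and related factors, contains ACGTG. Either core occurred in 43.8% of 32851 promoters of 300 bases and in 40 of 50 promoters of members (32 of 36 members with a promoter; Ndrg1 and Epas1 had none). Of the 50 member promoters ACGTG was in 28, beside 19.6% of all promoters, GCGTG in 28, beside 32.4%, and CACGTG in 7, beside 7.15%. A further motif that was searched, GGAATG, was in 6 of the 50, beside 14.7% of all promoters. A core in a promoter does not show binding. In the stretches printed, CACGT and CACGC are the cores read on the other strand. The 250 bases before the start of Hk2 (chr6:82774455-82774704, minus strand, GRCm38.p6, RefSeq) overlap no annotated gene and are printed with the cores in capitals, because Hk2 was the member called in TFE3 with all libraries and TMM scaling. None of the marked cores of this stretch lies within a CACGTG.

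Hk2: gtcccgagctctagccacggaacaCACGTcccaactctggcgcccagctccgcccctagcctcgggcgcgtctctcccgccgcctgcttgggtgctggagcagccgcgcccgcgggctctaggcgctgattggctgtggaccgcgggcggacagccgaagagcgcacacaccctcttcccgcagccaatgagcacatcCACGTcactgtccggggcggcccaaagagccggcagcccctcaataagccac

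Upper glycolysis runs from glucose phosphate to triose phosphates. Pfkm (ENSMUSG00000033065, chromosome 15, 98092589 to 98132451), the muscle-type phosphofructokinase, was at 75.3, 57.9 and 67.2 CPM in EV, 143, 174 and 107 in TAZ4SA, 205, 219 and 232 in YAP5SA, 64.2, 57.4 and 61.3 in TAZ-CAMTA1 and 71, 70.3 and 73.1 in YAP-TFE3. Values in TAZ4SA and YAP5SA lay above all EV libraries, and those of the fusions overlapped EV. Pfkm rose in TAZ4SA (log2 fold change 1.08, SE 0.13, edgeR adjusted p = 3.9e-07) and YAP5SA (log2 fold change 1.71, SE 0.13, edgeR adjusted p = 1.9e-10), and was not called in TAZ-CAMTA1 (log2 fold change -0.13, SE 0.13, edgeR adjusted p = 0.508) or YAP-TFE3 (log2 fold change 0.10, SE 0.13, edgeR adjusted p = 0.687). It was lower in TAZ-CAMTA1 than in TAZ4SA (log2 fold change -1.21, SE 0.13, edgeR adjusted p = 1.5e-07) and in YAP-TFE3 than in YAP5SA (log2 fold change -1.61, SE 0.13, edgeR adjusted p = 5.7e-10), and higher in YAP5SA than in TAZ4SA (log2 fold change 0.63, SE 0.13, edgeR adjusted p = 4.7e-04).

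Pfkp (ENSMUSG00000021196, chromosome 13, 6579768 to 6648777), the platelet-type enzyme, stood at 15.5, 18.3 and 14.2 CPM in EV, 26.1, 32.5 and 25.4 in EVsub, 47.7, 49.6 and 62.2 in TAZ4SA and 82, 58.9 and 75.1 in YAP5SA. In the fusion groups it was at 40.9, 49.2 and 51.3 (TAZ-CAMTA1) and 67, 47.2 and 41.7 (YAP-TFE3) CPM, and no library of these 5 groups overlapped EV. Pfkp rose in EVsub (log2 fold change 0.81, SE 0.19, edgeR adjusted p = 0.00379), TAZ4SA (log2 fold change 1.73, SE 0.19, edgeR adjusted p = 1.4e-07) and YAP5SA (log2 fold change 2.17, SE 0.19, edgeR adjusted p = 1.9e-09). It also rose in TAZ-CAMTA1 (log2 fold change 1.56, SE 0.19, edgeR adjusted p = 3.1e-06) and YAP-TFE3 (log2 fold change 1.70, SE 0.19, edgeR adjusted p = 1.6e-06). YAP-TFE3 was lower than YAP5SA (log2 fold change -0.47, SE 0.18, edgeR adjusted p = 0.0253), with overlapping libraries; the call ended with at least 10 counts required in every library (0.0629), under total-count scaling (0.586), without YAP-TFE3 replicate 2 (0.0909), without YAP-TFE3 replicate 3 (0.136), without YAP5SA replicate 1 (0.114) and without YAP5SA replicate 3 (0.0658). TAZ-CAMTA1 against TAZ4SA was not called (log2 fold change -0.18, SE 0.18, edgeR adjusted p = 0.432).

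Summed per kilobase, the phosphofructokinases Pfkl, Pfkm and Pfkp had a mean of 37.0 CPM per kb in EV, 57.9 in TAZ4SA, 90.6 in YAP5SA, 33.6 in TAZ-CAMTA1 and 40.3 in YAP-TFE3. Pfkm made up 54.0% of that sum in EV, 72.5% in TAZ4SA and 72.4% in YAP5SA. Pfkp went from 3.23% in EV to 10.5% in TAZ-CAMTA1 and 9.63% in YAP-TFE3, and Pfkl from 42.8% to 20.5% in TAZ4SA and 21.7% in YAP5SA. The liver-type gene Pfkl (97.9 to 119.99 CPM in EV) was called lower in TAZ4SA (-0.44, edgeR adjusted p = 0.0095) and TAZ-CAMTA1 (-0.42, edgeR adjusted p = 0.0332) and higher in YAP5SA (0.33, edgeR adjusted p = 0.0392). Its TAZ4SA call ended without EV replicate 2 (0.062) and without TAZ4SA replicate 1 (0.0521), and its TAZ-CAMTA1 call under total-count scaling (0.0524), without EV replicate 2 (0.139), without EV replicate 3 (0.0504), without TAZ-CAMTA1 replicate 1 (0.0746), without TAZ-CAMTA1 replicate 2 (0.0622) and without TAZ-CAMTA1 replicate 3 (0.113). The YAP5SA call ended with at least 10 counts required in every library (0.134), in DESeq2 (0.0521), without the filter on low counts (0.0598), in a fit of the 2 groups alone (0.166), with DESeq2 size factors (0.0519), without EV replicate 1 (0.127), without EV replicate 3 (0.123), without YAP5SA replicate 1 (0.323) and without YAP5SA replicate 3 (0.124), and under total-count scaling its direction turned (-0.04, edgeR adjusted p = 0.842).

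**Figure D3:**
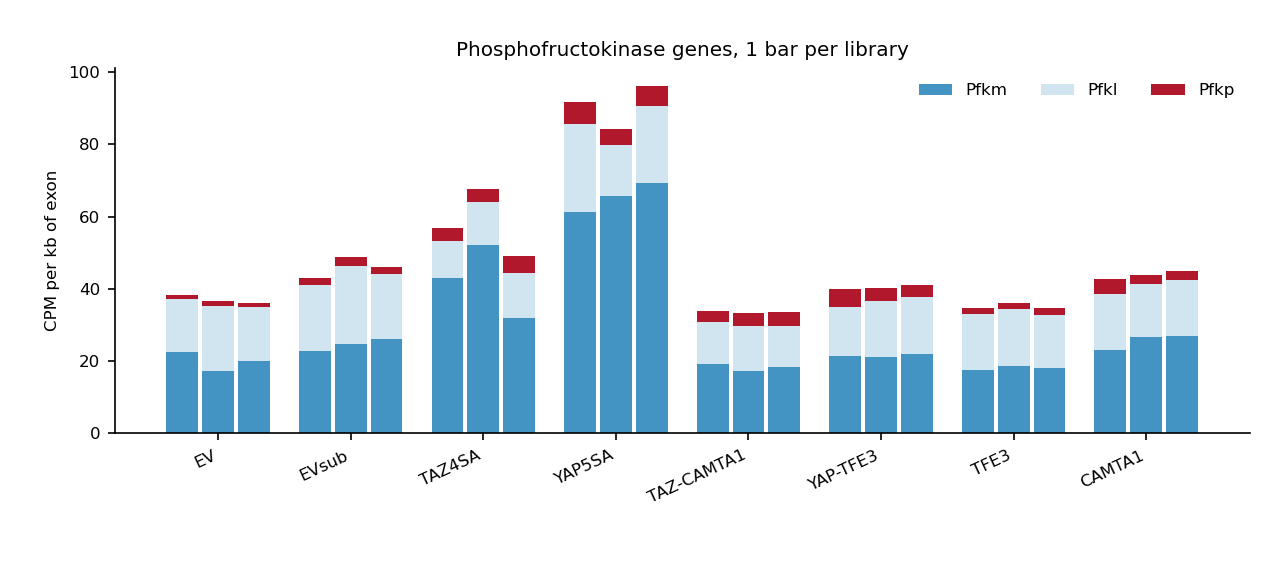
CPM per kb of the phosphofructokinase genes Pfkl, Pfkm and Pfkp in each library.

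Among the other upper-glycolysis members, the isomerase Gpi1 (293 to 327 CPM in EV) was at 624, 865 and 397 CPM in TAZ4SA and 862, 858 and 830.3 in YAP5SA. Gpi1 rose in TAZ4SA (1.04, edgeR adjusted p = 1.8e-05) and YAP5SA (1.47, edgeR adjusted p = 8.6e-08). The aldolase Aldoa was at 585, 645 and 578 CPM in EV, 796, 1108 and 506 in TAZ4SA and 1821, 1549 and 1616 in YAP5SA. Aldoa rose in YAP5SA (1.46, edgeR adjusted p = 1.7e-07). Its call in TAZ4SA (0.41, edgeR adjusted p = 0.0447) rested on the high replicate 2 (0.11 without it) and ended with at least 10 counts required in every library (0.0807), in DESeq2 (0.051), in a fit of the 2 groups alone (0.29), with replicate number as a block (0.0553), with DESeq2 size factors (0.0623), under total-count scaling (0.253), without EV replicate 1 (0.104), without EV replicate 2 (0.0522), without EV replicate 3 (0.112), without TAZ4SA replicate 1 (0.0771) and without TAZ4SA replicate 2 (0.538). Triose phosphate isomerase Tpi1 (377 to 463 CPM in EV) was called higher in EVsub (0.51, edgeR adjusted p = 0.0163) and YAP5SA (0.38, edgeR adjusted p = 0.0239). The Tpi1 call in EVsub ended in a fit of the 2 groups alone (0.0634), without EV replicate 1 (0.073), without EV replicate 3 (0.0756) and without EVsub replicate 2 (0.116); that in YAP5SA ended with at least 10 counts required in every library (0.0666), under total-count scaling (0.934), without EV replicate 1 (0.0857), without EV replicate 3 (0.0847), without YAP5SA replicate 1 (0.0923) and without YAP5SA replicate 3 (0.0824). In TAZ4SA Tpi1 was called lower under total-count scaling (0.017) and without TAZ4SA replicate 2 (0.0374).

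Lower glycolysis turns triose phosphates into pyruvate and yields ATP. Gapdh (ENSMUSG00000057666, chromosome 6, 125161715 to 125166467) had 33.1, 45.7 and 36.4 CPM in EV, 60.7, 78.4 and 53.8 in EVsub, 47.3, 58.5 and 51.6 in TAZ4SA and 142, 95 and 160.2 in YAP5SA, each group above EV without overlap. Gapdh rose in YAP5SA (log2 fold change 1.79, SE 0.19, edgeR adjusted p = 4.0e-08) and in EVsub (log2 fold change 0.75, SE 0.19, edgeR adjusted p = 0.00718), where the call ended without EVsub replicate 2 (0.0586). Its call in TAZ4SA (log2 fold change 0.45, SE 0.19, edgeR adjusted p = 0.0485) ended with at least 10 counts required in every library (0.0845), in DESeq2 (0.062), in a fit of the 2 groups alone (0.08), with DESeq2 size factors (0.0655), under total-count scaling (0.261), without EV replicate 1 (0.174), without EV replicate 3 (0.122), without TAZ4SA replicate 2 (0.15) and without TAZ4SA replicate 3 (0.0669). YAP5SA was above TAZ4SA (log2 fold change 1.34, SE 0.19, edgeR adjusted p = 1.7e-05) and YAP-TFE3 below YAP5SA (log2 fold change -1.46, SE 0.19, edgeR adjusted p = 6.4e-07).

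The Gapdh count was low for a glycolytic enzyme in every library. Annotated genes on other chromosomes that share at least 50 windows with Gapdh numbered 61, and they held 481, 604 and 539 CPM in EV and 2338, 1467 and 2204 in YAP5SA. Their share of the summed counts was 92.7 to 94.3% in every library. With those copies added to Gapdh, a step chosen after its low count was seen, the edgeR log2 fold change was 1.88 in YAP5SA, 0.79 in EVsub and 0.46 in TAZ4SA, and the Gapdh calls against EV were unchanged.

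**Figure D4:**
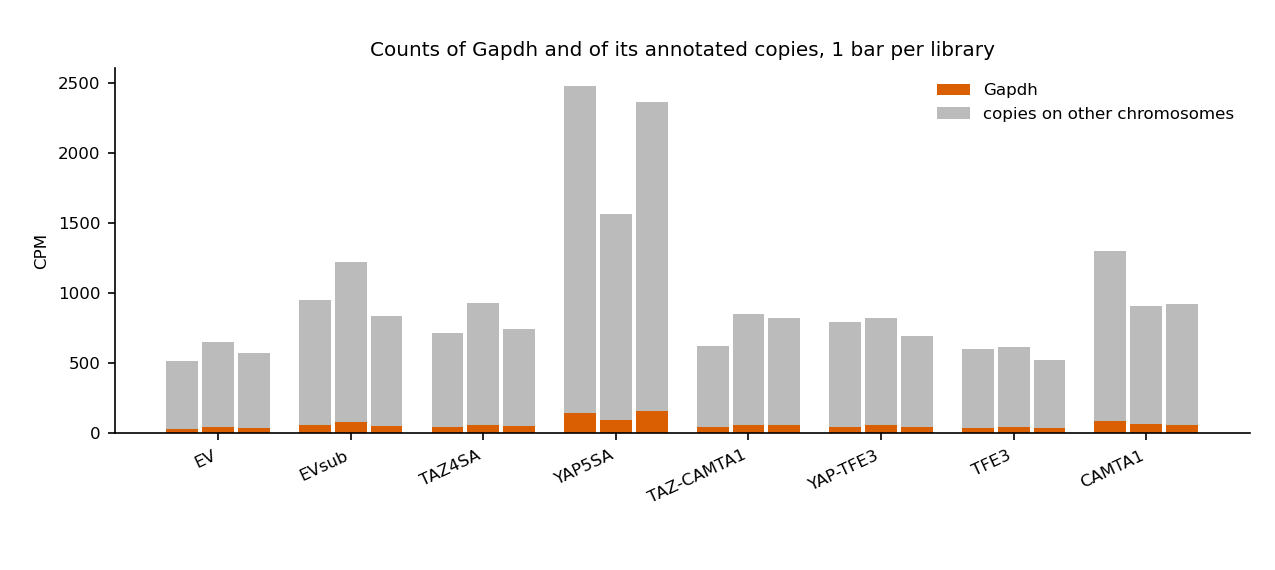
CPM of Gapdh, and of the 61 annotated genes elsewhere in the genome that share its sequence, in each library.

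Eno1 (ENSMUSG00000063524, chromosome 4, 150236721 to 150248879), the widespread enolase, was at 303, 319 and 301 CPM in EV, 556, 708 and 447 in EVsub, 301, 358 and 371 in TAZ4SA, 926, 596 and 877 in YAP5SA and 499.9, 639 and 588 in TAZ-CAMTA1. EVsub, YAP5SA and TAZ-CAMTA1 lay above EV without overlap, and TAZ4SA overlapped it. Genes on other chromosomes that share at least 50 windows with Eno1 held a further 161, 173 and 164 CPM in EV. Eno1 rose in EVsub (log2 fold change 0.89, SE 0.16, edgeR adjusted p = 4.7e-04), YAP5SA (log2 fold change 1.38, SE 0.16, edgeR adjusted p = 1.4e-07) and TAZ-CAMTA1 (log2 fold change 0.90, SE 0.16, edgeR adjusted p = 2.9e-04), and was not called in TAZ4SA (log2 fold change 0.16, SE 0.16, edgeR adjusted p = 0.412). It was higher in TAZ-CAMTA1 than in TAZ4SA (log2 fold change 0.74, SE 0.16, edgeR adjusted p = 5.5e-04) and lower in YAP-TFE3 than in YAP5SA (log2 fold change -0.93, SE 0.16, edgeR adjusted p = 2.5e-05). Eno1 was the only lower-glycolysis member called in TAZ-CAMTA1 against EV in the main edgeR fit, that of all 24 libraries with TMM scaling. Alternatives that also called Eno2 there are given below. The 250 bases before the first annotated start of Eno1 (chr4:150236458-150236707, plus strand, GRCm38.p6, RefSeq), outside any annotated gene, carry 1 core.

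Eno1: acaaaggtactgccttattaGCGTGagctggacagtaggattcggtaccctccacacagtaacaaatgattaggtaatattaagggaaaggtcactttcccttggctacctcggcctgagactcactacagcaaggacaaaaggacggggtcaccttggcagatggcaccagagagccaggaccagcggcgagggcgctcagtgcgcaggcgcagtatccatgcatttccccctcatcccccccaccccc

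Of the remaining lower-glycolysis members, the phosphoglycerate kinase Pgk1 rose in EVsub (0.91, edgeR adjusted p = 9.7e-04) and YAP5SA (1.13, edgeR adjusted p = 7.9e-06). The mutase Pgam1 rose in YAP5SA (0.77, edgeR adjusted p = 3.8e-04) and YAP-TFE3 (0.70, edgeR adjusted p = 0.00579). Its call in EVsub (0.54, edgeR adjusted p = 0.0245) ended in a fit of the 2 groups alone (0.088), without EV replicate 1 (0.109), without EV replicate 3 (0.0938) and without EVsub replicate 2 (0.193). For YAP-TFE3 all libraries lay above EV (276 to 322 against 160.2 to 211 CPM). Pyruvate kinase Pkm was called higher in EVsub (0.54, edgeR adjusted p = 0.0164) and YAP5SA (0.54, edgeR adjusted p = 0.00409). The Pkm call in EVsub ended in a fit of the 2 groups alone (0.0733), without EV replicate 1 (0.067), without EV replicate 3 (0.0582) and without EVsub replicate 2 (0.134), and that in YAP5SA under total-count scaling (0.286). Neuronal enolase Eno2 was not called against an empty vector with all libraries and TMM scaling. It was called lower in TAZ4SA without TAZ4SA replicate 2 (0.0246), lower in TAZ-CAMTA1 in DESeq2 (0.0414), without the filter on low counts (0.00513), in a fit of the 2 groups alone (0.00402), under total-count scaling (0.042) and without EV replicate 2 (0.0436), and higher in YAP5SA without the filter on low counts (0.0174), in a fit of the 2 groups alone (0.0336) and without YAP5SA replicate 1 (0.0456). Eno2 was lower in YAP-TFE3 than in YAP5SA (-0.89, edgeR adjusted p = 0.00508), a call that ended under total-count scaling (0.0546).

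Lactate dehydrogenase is built from Ldha and Ldhb subunits. Ldha (ENSMUSG00000063229, chromosome 7, 46841475 to 46855627) was at 257, 381 and 263 CPM in EV, 495, 697 and 435 in EVsub and 533, 352 and 489 in YAP5SA; EVsub lay above EV, and YAP5SA overlapped it. Ldha rose in EVsub (log2 fold change 0.85, SE 0.18, edgeR adjusted p = 0.00206) and was called higher in YAP5SA (log2 fold change 0.61, SE 0.18, edgeR adjusted p = 0.00523), where the call ended under total-count scaling (0.25). Ldhb (ENSMUSG00000030246, chromosome 6, 142490249 to 142507957) was at 139, 109.96 and 129 CPM in EV, 68, 85.5 and 80.5 in TAZ4SA, 79.6, 75.4 and 81.9 in YAP5SA, 72.4, 53.8 and 54.1 in TAZ-CAMTA1 and 70.6, 92 and 110.2 in YAP-TFE3. All but YAP-TFE3 lay below EV without overlap. Ldhb fell in TAZ4SA (log2 fold change -0.69, SE 0.15, edgeR adjusted p = 5.4e-04), YAP5SA (log2 fold change -0.68, SE 0.15, edgeR adjusted p = 4.5e-04) and TAZ-CAMTA1 (log2 fold change -1.07, SE 0.15, edgeR adjusted p = 2.5e-05). Its call in YAP-TFE3 (log2 fold change -0.47, SE 0.15, edgeR adjusted p = 0.0369) ended in a fit of the 2 groups alone (0.0705), under total-count scaling (0.0506), without EV replicate 1 (0.159), without EV replicate 3 (0.109), without YAP-TFE3 replicate 1 (0.237) and without YAP-TFE3 replicate 2 (0.0814). Per kilobase, Ldhb made up a mean of 47.3% of the Ldha and Ldhb sum in EV (libraries 37.8 to 53.3%). Means were 30.6% in EVsub (22.0 to 39.7%), 38.8% in TAZ4SA (37.3 to 39.8%) and 34.3% in YAP-TFE3 (29.5 to 38.8%), all overlapping EV. TAZ-CAMTA1 (31.1%, 26.9 to 37.0%) and YAP5SA (27.0%, 23.9 to 31.1%) lay below EV without overlap.

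Slc16a1 (ENSMUSG00000032902, chromosome 3, 104638668 to 104658462) exports lactate across the plasma membrane. Libraries stood at 32, 54.2 and 38.2 CPM in EV, 78, 67.5 and 65.6 in EVsub, 60.9, 53.7 and 62.8 in TAZ4SA and 59.6, 60.6 and 60.4 in YAP5SA. In the fusion groups Slc16a1 was at 65.7, 89.2 and 80.5 (TAZ-CAMTA1) and 177, 105 and 94 (YAP-TFE3) CPM; only TAZ4SA overlapped EV. Slc16a1 rose in YAP-TFE3 (log2 fold change 1.60, SE 0.19, edgeR adjusted p = 4.0e-06), TAZ-CAMTA1 (log2 fold change 0.92, SE 0.19, edgeR adjusted p = 0.00116) and EVsub (log2 fold change 0.76, SE 0.19, edgeR adjusted p = 0.00571). Its call in TAZ4SA (log2 fold change 0.51, SE 0.19, edgeR adjusted p = 0.0241) ended in a fit of the 2 groups alone (0.0967), under total-count scaling (0.144), without EV replicate 1 (0.142), without EV replicate 3 (0.0824), without TAZ4SA replicate 1 (0.0597) and without TAZ4SA replicate 3 (0.0588). The YAP5SA call (log2 fold change 0.54, SE 0.19, edgeR adjusted p = 0.0147) ended under total-count scaling (0.462), without EV replicate 1 (0.0982) and without EV replicate 3 (0.0548). YAP-TFE3 was above YAP5SA (log2 fold change 1.06, SE 0.19, edgeR adjusted p = 3.5e-05) and above TAZ-CAMTA1 (log2 fold change 0.68, SE 0.19, edgeR adjusted p = 0.02); the latter call ended in a fit of the 2 groups alone (0.057), without TAZ-CAMTA1 replicate 1 (0.0876), without TAZ-CAMTA1 replicate 3 (0.0594) and without YAP-TFE3 replicate 1 (0.209). Of the summed Slc16a1 and Slc16a3 per kilobase, Slc16a1 made up 97.2 to 99.7% in every library, and Slc16a3 was never called. The 250 bases before the Slc16a1 start (chr3:104638414-104638663, plus strand, GRCm38.p6, RefSeq) lie outside annotated genes and carry 3 marked sites; CACGTG reads as a core on both strands.

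Slc16a1: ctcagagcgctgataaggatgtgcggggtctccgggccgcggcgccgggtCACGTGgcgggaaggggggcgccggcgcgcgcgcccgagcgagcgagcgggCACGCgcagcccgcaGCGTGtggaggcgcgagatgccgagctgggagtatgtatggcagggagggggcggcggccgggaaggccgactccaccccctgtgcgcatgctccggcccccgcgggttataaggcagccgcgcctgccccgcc

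Pyruvate dehydrogenase kinases inactivate the mitochondrial enzyme complex that turns pyruvate into acetyl-CoA. Pdk1 (ENSMUSG00000006494, chromosome 2, 71873224 to 71903858) was at 48.2, 55.2 and 46.5 CPM in EV, 16.8, 16.5 and 23.5 in TAZ4SA, 12.4, 10.8 and 11.3 in YAP5SA, 37.7, 32.1 and 32.1 in TAZ-CAMTA1 and 46.1, 52.8 and 51 in YAP-TFE3. TAZ4SA, YAP5SA and TAZ-CAMTA1 lay below EV without overlap, and YAP-TFE3 overlapped EV. Pdk1 fell in TAZ4SA (log2 fold change -1.39, SE 0.15, edgeR adjusted p = 1.0e-07), YAP5SA (log2 fold change -2.12, SE 0.16, edgeR adjusted p = 1.1e-10) and TAZ-CAMTA1 (log2 fold change -0.56, SE 0.15, edgeR adjusted p = 0.00815). Pdk1 was higher in TAZ-CAMTA1 than in TAZ4SA (log2 fold change 0.84, SE 0.15, edgeR adjusted p = 7.9e-05) and in YAP-TFE3 than in YAP5SA (log2 fold change 2.12, SE 0.16, edgeR adjusted p = 1.5e-10), and lower in YAP5SA than in TAZ4SA (log2 fold change -0.73, SE 0.16, edgeR adjusted p = 8.3e-04). YAP-TFE3 was above TAZ-CAMTA1 (log2 fold change 0.56, SE 0.15, edgeR adjusted p = 0.0146), a call that ended without TAZ-CAMTA1 replicate 2 (0.0771), without TAZ-CAMTA1 replicate 3 (0.0701) and without YAP-TFE3 replicate 2 (0.0555). Not called in EVsub (log2 fold change 0.37, SE 0.14, edgeR adjusted p = 0.0688), it was called there without EVsub replicate 2 (0.0131). The stretch before its first annotated start (chr2:71872974-71873223, plus strand, GRCm38.p6, RefSeq), outside annotated genes, is shown because Pdk1 had the largest fall of any member against an empty vector; it carries 1 core.

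Pdk1: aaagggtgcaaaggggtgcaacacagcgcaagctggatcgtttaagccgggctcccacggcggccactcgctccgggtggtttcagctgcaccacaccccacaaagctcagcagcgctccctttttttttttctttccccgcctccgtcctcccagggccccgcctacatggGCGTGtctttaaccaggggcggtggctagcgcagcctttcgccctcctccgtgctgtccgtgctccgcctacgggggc

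Pdk4 had 86.1 to 95.8% of the per-kilobase sum of Pdk1, Pdk2 and Pdk4 in every library. It stood at 1206, 571 and 1178 CPM in EV and 233, 365 and 229 in YAP5SA, a wide spread in EV. Pdk4 fell in YAP5SA (-1.84, edgeR adjusted p = 3.3e-06) and TAZ-CAMTA1 (-1.29, edgeR adjusted p = 0.0013), and was called lower in YAP-TFE3 (-1.07, edgeR adjusted p = 0.00752), TAZ4SA (-0.85, edgeR adjusted p = 0.00898) and EVsub (-0.97, edgeR adjusted p = 0.0115). The YAP-TFE3 call ended without EV replicate 1 (0.0501), the TAZ4SA call in a fit of the 2 groups alone (0.0538), without EV replicate 1 (0.0531) and without TAZ4SA replicate 3 (0.0511) and the EVsub call in a fit of the 2 groups alone (0.0586), without EV replicate 1 (0.0669), without EV replicate 3 (0.0647) and without EVsub replicate 1 (0.0697). Pdk2 fell in EVsub (-0.90, edgeR adjusted p = 0.00506) and was otherwise called only under alternatives: lower in TAZ4SA without TAZ4SA replicate 2 (0.0399), lower in TAZ-CAMTA1 in a fit of the 2 groups alone (0.0495) and without TAZ-CAMTA1 replicate 1 (0.0439) and higher in TFE3 in a fit of the 2 groups alone (0.0499).

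Pfkfb3 (ENSMUSG00000026773, chromosome 2, 11471433 to 11554077) makes the allosteric activator of phosphofructokinase. It stood at 9.46, 9.07 and 11.5 CPM in EV, 42.2, 69.9 and 18.8 in TAZ4SA, 46.3, 70.1 and 50.2 in YAP5SA, 14.3, 13.1 and 11.5 in TAZ-CAMTA1 and 51, 28.1 and 29.6 in YAP-TFE3. TAZ4SA, YAP5SA and YAP-TFE3 lay above EV without overlap, and the lowest TAZ-CAMTA1 library was level with the highest of EV. Pfkfb3 rose in TAZ4SA (log2 fold change 2.12, SE 0.32, edgeR adjusted p = 8.0e-06), YAP5SA (log2 fold change 2.47, SE 0.32, edgeR adjusted p = 5.0e-07) and YAP-TFE3 (log2 fold change 1.85, SE 0.32, edgeR adjusted p = 2.2e-04), and was not called in TAZ-CAMTA1 (log2 fold change 0.38, SE 0.32, edgeR adjusted p = 0.432). TAZ-CAMTA1 was lower than TAZ4SA (log2 fold change -1.74, SE 0.31, edgeR adjusted p = 8.1e-05) and YAP-TFE3 higher than TAZ-CAMTA1 (log2 fold change 1.48, SE 0.31, edgeR adjusted p = 0.00284). YAP-TFE3 against YAP5SA was not called (log2 fold change -0.62, SE 0.30, edgeR adjusted p = 0.0681) except without the filter on low counts (0.0121), in a fit of the 2 groups alone (0.0247) and without YAP-TFE3 replicate 1 (0.013), nor was YAP5SA against TAZ4SA (log2 fold change 0.36, SE 0.30, edgeR adjusted p = 0.353); the latter was called without TAZ4SA replicate 2 (0.0142). Its relative Pfkfb4 was called lower in YAP5SA (-0.62, edgeR adjusted p = 0.0059) and higher in EVsub (0.55, edgeR adjusted p = 0.0302), the EVsub call ending in a fit of the 2 groups alone (0.128), under total-count scaling (0.065), without EV replicate 1 (0.0573), without EV replicate 2 (0.0698), without EV replicate 3 (0.103) and without EVsub replicate 1 (0.266).

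The prolyl hydroxylase Egln3 (ENSMUSG00000035105, chromosome 12, 54178981 to 54203860) was at 5.49, 7.64 and 6.99 CPM in EV, 12.8, 14.5 and 11.6 in EVsub, 19.2, 28.2 and 16.2 in TAZ4SA, 41.3, 34 and 40.9 in YAP5SA, 6.63, 4.24 and 5.15 in TAZ-CAMTA1 and 6.97, 7.84 and 7.9 in YAP-TFE3. EVsub, TAZ4SA and YAP5SA lay above EV without overlap and the fusions overlapped EV. Egln3 rose in EVsub (log2 fold change 0.95, SE 0.19, edgeR adjusted p = 0.00107), TAZ4SA (log2 fold change 1.66, SE 0.19, edgeR adjusted p = 2.6e-07) and YAP5SA (log2 fold change 2.53, SE 0.19, edgeR adjusted p = 2.0e-10). It was lower in TAZ-CAMTA1 than in TAZ4SA (log2 fold change -1.98, SE 0.19, edgeR adjusted p = 5.2e-08), lower in YAP-TFE3 than in YAP5SA (log2 fold change -2.35, SE 0.19, edgeR adjusted p = 6.7e-10) and higher in YAP5SA than in TAZ4SA (log2 fold change 0.88, SE 0.18, edgeR adjusted p = 6.3e-04). Egln1, the hydroxylase expressed in most cells, rose in TAZ-CAMTA1 (87.9 to 101 CPM, against 53.7 to 61.9 in EV; 0.67, edgeR adjusted p = 1.8e-04) and was higher there than in TAZ4SA (0.88, edgeR adjusted p = 2.0e-06). It was called lower in TAZ4SA against EV with at least 10 counts required in every library (0.0484), under total-count scaling (0.0216) and without TAZ4SA replicate 3 (0.0194), and in YAP5SA under total-count scaling (0.00173). Egln3 had the largest rise of any member in YAP5SA against EV, and the 250 bases before its start (chr12:54203875-54204124, minus strand, GRCm38.p6, RefSeq), outside annotated genes, carry 1 core.

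Egln3: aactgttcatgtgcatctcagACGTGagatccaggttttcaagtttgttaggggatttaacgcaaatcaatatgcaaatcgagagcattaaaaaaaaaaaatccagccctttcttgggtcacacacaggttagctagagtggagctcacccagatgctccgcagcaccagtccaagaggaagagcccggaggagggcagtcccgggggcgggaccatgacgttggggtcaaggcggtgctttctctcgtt

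Hif1a (ENSMUSG00000021109, chromosome 12, 73901375 to 73947530), the alpha subunit, stood at 175, 283 and 208 CPM in EV, 195, 119 and 188 in EVsub, 80.7, 81.2 and 110.4 in TAZ4SA and 52, 58.2 and 55.8 in YAP5SA. In the fusion groups it was at 191, 205 and 184 (TAZ-CAMTA1) and 241, 202 and 181 (YAP-TFE3) CPM. TAZ4SA and YAP5SA lay below EV without overlap, and the others overlapped EV. Hif1a fell in TAZ4SA (log2 fold change -1.29, SE 0.17, edgeR adjusted p = 2.2e-06) and YAP5SA (log2 fold change -2.004, SE 0.18, edgeR adjusted p = 2.0e-09). Hif1a was higher in TAZ-CAMTA1 than in TAZ4SA (log2 fold change 1.09, SE 0.17, edgeR adjusted p = 2.1e-05) and in YAP-TFE3 than in YAP5SA (log2 fold change 1.91, SE 0.18, edgeR adjusted p = 4.8e-09), and lower in YAP5SA than in TAZ4SA (log2 fold change -0.72, SE 0.17, edgeR adjusted p = 0.00248). In EVsub it was not called (log2 fold change -0.41, SE 0.17, edgeR adjusted p = 0.0933) except without EV replicate 1 (0.0401). Epas1, the other alpha subunit listed, had too few counts to test.

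Collagen prolyl hydroxylase P4ha1 (ENSMUSG00000019916, chromosome 10, 59323296 to 59373304) was at 176, 255 and 176 CPM in EV, 298, 295 and 278 in YAP5SA, 323, 323 and 321 in TAZ-CAMTA1 and 474, 293 and 317 in YAP-TFE3, all above EV without overlap. P4ha1 rose in TAZ-CAMTA1 (log2 fold change 0.67, SE 0.16, edgeR adjusted p = 0.00471), YAP-TFE3 (log2 fold change 0.84, SE 0.16, edgeR adjusted p = 9.2e-04) and YAP5SA (log2 fold change 0.52, SE 0.16, edgeR adjusted p = 0.00702); the YAP5SA call ended under total-count scaling (0.353). In TAZ4SA it was not called (log2 fold change 0.27, SE 0.16, edgeR adjusted p = 0.16) except without EV replicate 2 (0.0197). P4ha2 (ENSMUSG00000018906, chromosome 11, 54100095 to 54131665; 61.7, 71.7 and 60.6 CPM in EV, 69.4, 76.2 and 75.5 in YAP5SA) was called only under alternatives, lower in TAZ-CAMTA1 than in TAZ4SA without TAZ4SA replicate 3 (0.0322) and higher in YAP-TFE3 than in YAP5SA under total-count scaling (5.7e-04). The carbonic anhydrase Car9, with 3.67, 2.17 and 1.32 CPM in TAZ4SA and 0.464, 0.382 and 0.531 in EV, rose in TAZ4SA (2.36, edgeR adjusted p = 5.2e-05) and YAP5SA (1.47, edgeR adjusted p = 0.00471). Its calls in TAZ-CAMTA1 (1.25, edgeR adjusted p = 0.0413) and YAP-TFE3 (1.65, edgeR adjusted p = 0.00863) were less stable: the first ended with replicate number as a block (0.0537), without EV replicate 1 (0.108), without EV replicate 2 (0.104), without EV replicate 3 (0.0805), without TAZ-CAMTA1 replicate 1 (0.0523), without TAZ-CAMTA1 replicate 2 (0.0611) and without TAZ-CAMTA1 replicate 3 (0.168), the second without YAP-TFE3 replicate 1 (0.0586).

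Ddit4 (ENSMUSG00000020108, chromosome 10, 59949669 to 59951834), an inhibitor of mTORC1 signalling, stood at 10.3, 14.8 and 11.4 CPM in EV, 24.3, 24.2 and 23.2 in EVsub, 27.9, 42.8 and 37.8 in CAMTA1, 52.1, 70.4 and 62.8 in TAZ4SA and 49.2, 32.9 and 38.9 in YAP5SA. EVsub, TAZ4SA and YAP5SA lay above EV without overlap, and CAMTA1 lay above EVsub. Ddit4 rose in TAZ4SA (log2 fold change 2.35, SE 0.18, edgeR adjusted p = 6.1e-10), YAP5SA (log2 fold change 1.73, SE 0.17, edgeR adjusted p = 1.1e-08) and EVsub (log2 fold change 0.98, SE 0.17, edgeR adjusted p = 3.4e-04). In CAMTA1 against EVsub it was not called (log2 fold change 0.60, SE 0.17, edgeR adjusted p = 0.0629) except in DESeq2 (0.0223), without the filter on low counts (0.0187) and without CAMTA1 replicate 1 (0.0335). Ddit4 was lower in TAZ-CAMTA1 than in TAZ4SA (log2 fold change -2.22, SE 0.17, edgeR adjusted p = 2.1e-09), in YAP-TFE3 than in YAP5SA (log2 fold change -1.44, SE 0.17, edgeR adjusted p = 1.5e-07) and in YAP5SA than in TAZ4SA (log2 fold change -0.61, SE 0.17, edgeR adjusted p = 0.00507).

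Ndrg1 (ENSMUSG00000005125, chromosome 15, 66929318 to 66969640), a stress-response gene, was at 83.4, 67.3 and 74 CPM in EV and 39.3, 39.7 and 67 in EVsub, the latter lower without overlap, though its highest library was close to the lowest of EV. Its call in EVsub (log2 fold change -0.62, SE 0.17, edgeR adjusted p = 0.01) ended in a fit of the 2 groups alone (0.0823), without EV replicate 1 (0.0551), without EVsub replicate 1 (0.0692) and without EVsub replicate 2 (0.0703), and other groups had it called only under alternatives: higher in TAZ-CAMTA1 without the filter on low counts (0.0484) and in a fit of the 2 groups alone (0.0109), lower in TFE3 in a fit of the 2 groups alone (0.0136) and lower in YAP5SA under total-count scaling (0.00759). The mitophagy gene Bnip3 was at 51.5, 51.4 and 46.4 CPM in EV, 32.4, 32 and 29.3 in TAZ-CAMTA1 and 77, 73.1 and 66.7 in YAP-TFE3. Bnip3 fell in TAZ4SA (-0.67, edgeR adjusted p = 5.3e-04) and TAZ-CAMTA1 (-0.67, edgeR adjusted p = 0.00195) and was called lower in YAP5SA (-0.41, edgeR adjusted p = 0.015) and higher in YAP-TFE3 (0.54, edgeR adjusted p = 0.0121). The YAP5SA call ended without YAP5SA replicate 1 (0.0644), and the YAP-TFE3 call without EV replicate 3 (0.067) and without YAP-TFE3 replicate 1 (0.0933). YAP-TFE3 was above TAZ-CAMTA1 (1.21, edgeR adjusted p = 7.9e-06) and above YAP5SA (0.95, edgeR adjusted p = 5.3e-06). Ankrd37 was called against an empty vector only under alternatives, higher in EVsub without EV replicate 2 (0.0225) and without EVsub replicate 3 (0.0429). It was lower in TAZ-CAMTA1 than in TAZ4SA (-0.73, edgeR adjusted p = 0.032), a call that ended without the filter on low counts (0.117), in a fit of the 2 groups alone (0.125), under total-count scaling (0.107), without TAZ-CAMTA1 replicate 2 (0.0588), without TAZ-CAMTA1 replicate 3 (0.114), without TAZ4SA replicate 1 (0.0866) and without TAZ4SA replicate 3 (0.118). Higd1a was likewise called lower in TAZ4SA with at least 10 counts required in every library (0.0349), in DESeq2 (0.0492), under total-count scaling (0.0155) and without EV replicate 3 (0.0406) and in YAP5SA under total-count scaling (0.0143), and it was higher in TAZ-CAMTA1 than in TAZ4SA (0.61, edgeR adjusted p = 0.00613).

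**Figure D5:**
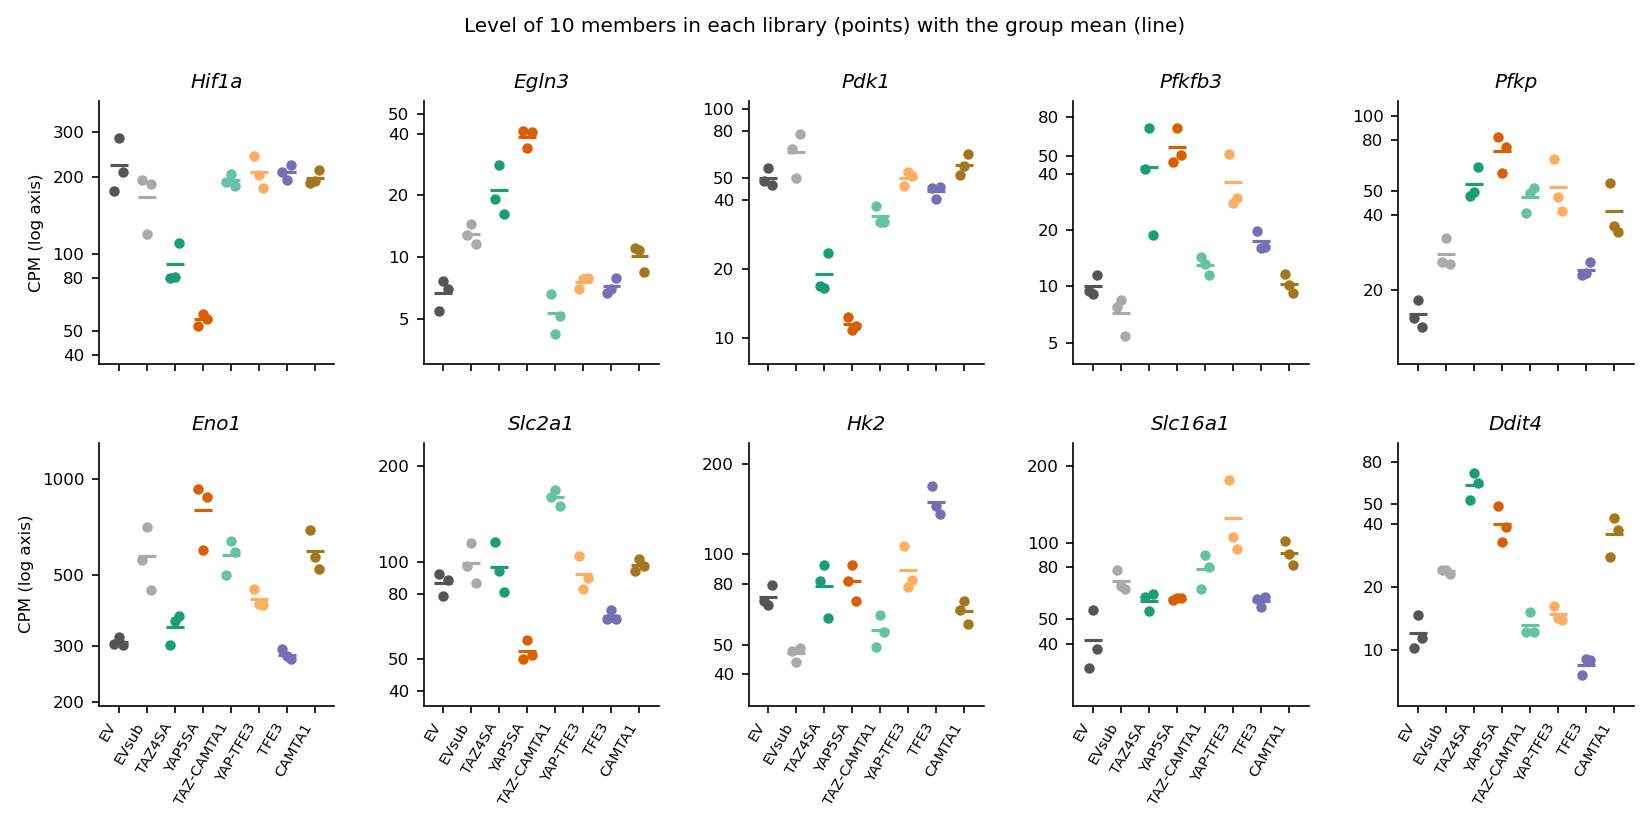
CPM of single members in each library, by group, with a panel for each gene.

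In several groups the same library was the highest for most glycolytic enzymes. Of the 12 tested members of upper and lower glycolysis, EV replicate 2 had the highest CPM of its group in 10, EVsub replicate 2 in 9, TAZ4SA replicate 2 in 9, TAZ-CAMTA1 replicate 2 in 9, YAP5SA replicate 1 in 8 and CAMTA1 replicate 1 in 11. In TFE3 and YAP-TFE3 the most for a single replicate were 7 and 6. Calls of single enzymes within a comparison are therefore not treated as independent of each other. How many of all tested genes were highest in the same replicates was not counted, so the pattern is not read as particular to glycolysis.

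A further list held 45 other genes of carbohydrate metabolism, 35 of them tested; the alternatives were not run for it or for the list after it. EdgeR called 12 of these in EVsub against EV (34.3%, beside 22.1% of all tested genes; 10 higher, 2 lower) and 16 in TAZ4SA (45.7%, beside 57.5%; 12 and 4). It called 22 in YAP5SA (62.9%, beside 71.2%; 16 and 6), 6 in TAZ-CAMTA1 (17.1%, beside 21.5%; 5 and 1) and 9 in YAP-TFE3 (25.7%, beside 15.3%; 8 and 1). In TFE3 against EV it called 1 (2.86%, beside 3.38%), and in CAMTA1 against EVsub 1 (2.86%, beside 2.18%). Named here and for the next list are only the largest called rise and fall in each comparison, leaving aside genes averaging fewer than 50 counts per library. The muscle enolase Eno3 had the largest rise in YAP5SA, from a mean of 6.83 CPM in EV to 63.2 (log2 fold change 3.21), in TAZ4SA (1.74), TAZ-CAMTA1 (1.56), EVsub (1.17) and YAP-TFE3 (0.82, edgeR adjusted p = 0.0415). The largest fall was that of the pyruvate dehydrogenase phosphatase Pdp1 in TAZ4SA (-1.69) and EVsub (-1.10), of Pfkfb2 in YAP5SA (-1.84) and of Pdp2 in YAP-TFE3 (-0.64). The gene called in TFE3 was Ugp2 (0.64) and that in CAMTA1 Gbe1 (0.71), both higher.

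A list of 32 other hypoxia-inducible factor targets and partners had 30 tested. EdgeR called 8 in EVsub against EV (26.7%, beside 22.1% of all tested genes; 3 higher, 5 lower), 20 in TAZ4SA (66.7%, beside 57.5%; 14 and 6) and 18 in YAP5SA (60%, beside 71.2%; 11 and 7). It called 10 in TAZ-CAMTA1 (33.3%, beside 21.5%; 6 and 4), 9 in YAP-TFE3 (30%, beside 15.3%; 8 and 1), 2 in TFE3 (6.67%, beside 3.38%; 1 and 1) and 1 in CAMTA1 against EVsub (3.33%, beside 2.18%). Cited2, a competitor of hypoxia-inducible factor for its coactivators, had the largest rise in YAP5SA, from a mean of 35.3 CPM in EV to 327 (3.21). It also led in TAZ4SA (2.81) and in EVsub (mean 93.1 CPM, edgeR adjusted p = 2.5e-06). Rora had the largest fall in YAP5SA (-2.38), TAZ4SA (-1.38) and EVsub (-1.12), and Bhlhe40 in TAZ-CAMTA1 (-1.56) and YAP-TFE3 (-0.74). The largest rise was that of Vldlr in TAZ-CAMTA1 (1.399) and of Stc2 in YAP-TFE3 (1.26); in TFE3 Bhlhe41 rose (1.13) and Adm fell (-0.99). The gene called in CAMTA1 was Vegfa (0.48, edgeR adjusted p = 0.0308).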

How the data were processed

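The count of reads per gene was taken as deposited by the authors. Their methods describe bcbio-nextgen, alignment to mm10 with Hisat2 on an Ensembl annotation, and gene counts from Salmon through tximport, without stating which of these gave the deposited counts. Libraries held 16471181 to 30132586 counts. Genes with a mean count of at least 5 (14361 of 39017) were scaled by TMM and fitted together in edgeR 4.0.16 (R 4.3.3) by quasi-likelihood, with p adjusted by Benjamini-Hochberg over all of them. Alternatives were DESeq2 1.42.0, its size factors, total-count scaling, other filters, a replicate block, fits of 2 groups and fits without each library. Plots came from matplotlib 3.10.9 and tables from pandas 2.3.3 with numpy 2.4.6 under Python 3.11.15; exon lengths and shared windows came from GENCODE M21 and promoters from RefSeq on GRCm38.p6. Members given an identifier and coordinates were the 2 of each role with the widest range of group means and a mean of at least 50 counts, with Hif1a, Slc2a1, Hk1, Hk2, Gapdh, Ldha and Pdk1 added; others are described more briefly. Members and lists were chosen with earlier results of these data known. The 1 library whose labels disagreed, YAP-TFE3 replicate 3, kept the number of its title. SW872 cells and chromatin data of the same study were not analysed here.

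Each group is 3 separately made pools of 1 cell line, so the spread covers transduction and culture in that line alone. EVsub and CAMTA1 differ from the other groups in culture density, and EVsub was the control of CAMTA1 alone. RNA counts measure neither protein, oxygen, glucose uptake nor lactate. Genes with close copies or overlapping neighbours carry errors of assignment that the standard errors leave out. Group differences in scaling factors move fold changes in TAZ4SA and YAP5SA. Comparisons with EV share its 3 libraries. A p above the threshold does not show that groups are equal. Pairs of groups without a direct test are not ranked.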

Additional observations from a re-analysis of the deposited data

How the results depend on the processing

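Of 385 pairs of member and comparison, 145 were called and 99 of these kept their call under every alternative. Over 5368 values from alternatives, 185 calls were lost, 128 gained and 1 turned in direction: Pfkl in YAP5SA against EV under total-count scaling (-0.037, edgeR adjusted p = 0.842), where the scaling itself lowers all YAP5SA values. Total-count scaling lost 21 calls and gained 27, fits of only 2 groups lost 25 and gained 21, DESeq2 lost 3 and gained 12, and dropping the filter on low counts lost 4 and gained 18. At least 10 counts in every library lost 6 and gained 7, DESeq2 size factors lost 4 and gained 0.

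Leaving out 1 library at a time, the members called ranged as follows: EVsub against EV 11 to 17 (16 with all libraries), TAZ4SA against EV 13 to 18 (17), YAP5SA against EV 23 to 26 (26), TAZ-CAMTA1 against EV 10 to 12 (12), YAP-TFE3 against EV 6 to 9 (9), TFE3 against EV 1 to 2 (1), CAMTA1 against EVsub 0 to 1 (0), TAZ-CAMTA1 against TAZ4SA 13 to 19 (17), YAP-TFE3 against YAP5SA 17 to 22 (20), YAP-TFE3 against TAZ-CAMTA1 4 to 9 (8) and YAP5SA against TAZ4SA 17 to 23 (19). Over the same fits, all genes called against EV were 1971 to 3668 in EVsub (3173) and 7485 to 8878 in TAZ4SA (8253). YAP5SA had 9620 to 9801 (10220), TAZ-CAMTA1 2010 to 3198 (3088), YAP-TFE3 1133 to 2266 (2203) and TFE3 192 to 286 (485). CAMTA1 against EVsub had 72 to 710 (313), and YAP-TFE3 against TAZ-CAMTA1 835 to 1549 (1671). TAZ-CAMTA1 against TAZ4SA had 6697 to 8658 (7854), YAP-TFE3 against YAP5SA 9592 to 9775 (10184) and YAP5SA against TAZ4SA 4656 to 7210 (6087). YAP-TFE3 against TAZ-CAMTA1 had 5 members without TAZ-CAMTA1 replicate 2 and 4 without replicate 3. TFE3 against EV had 2 without EV replicate 2, and CAMTA1 against EVsub had 1 without CAMTA1 replicate 1; the cause was not tested.

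Outside single-library omissions, the counts that moved furthest for their size were those of CAMTA1 against EVsub (0), with 2 in DESeq2, 3 without the filter on low counts and 1 under total-count scaling; of TFE3 against EV (1), with 2 in DESeq2, 3 without the filter and 7 in a fit of only the 2 groups; and, in fits of only the 2 groups, EVsub against EV (16) with 10, TAZ-CAMTA1 against TAZ4SA (17) with 11, YAP-TFE3 against TAZ-CAMTA1 (8) with 12, TAZ-CAMTA1 against EV (12) with 17, TAZ4SA against EV (17) with 12 and YAP5SA against TAZ4SA (19) with 14. All genes called moved in the same direction in those 2-group fits. They were 2572 in YAP-TFE3 against TAZ-CAMTA1 (1671 in the fit of all groups) and 4396 in TAZ-CAMTA1 against EV (3088). TAZ4SA against EV had 6019 (8253), YAP5SA against TAZ4SA 2910 (6087) and EVsub against EV 1683 (3173). TAZ-CAMTA1 against TAZ4SA had 5491 (7854) and TFE3 against EV 1512 (485). The cause was not tested.

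With replicate number as a block, the counts were 16 in EVsub, 16 in TAZ4SA, 26 in YAP5SA, 11 in TAZ-CAMTA1, 9 in YAP-TFE3 and 1 in TFE3 against EV, and 0 in CAMTA1 against EVsub. Between constructs they were 17 for TAZ-CAMTA1 against TAZ4SA, 20 for YAP-TFE3 against YAP5SA, 9 for YAP-TFE3 against TAZ-CAMTA1 and 19 for YAP5SA against TAZ4SA. All genes called with the block were, in the same order, 3016, 8161, 10148, 3000, 2170, 455 and 301, then 7739, 10110, 1620 and 5959. Libraries of the same number were not correlated above 0.1 at all 3 numbers in any comparison; CAMTA1 against EVsub came nearest (mean 0.22, lowest -0.0025). With copies added to their gene, chosen after seeing the data, the counts differed in 1 comparison, TAZ-CAMTA1 against TAZ4SA. It had 16 in place of 17 (all genes 7853, beside 7854).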

Other observations

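Slc2a3, a glucose transporter outside the 38 genes and chosen after its values were seen, was at 0.0844 to 0.191 CPM in EV, 1.32 to 6.52 in TAZ4SA, 2.72 to 4.42 in YAP5SA, 0.934 to 6.42 in YAP-TFE3 and 0.1597 to 0.419 in TAZ-CAMTA1. Its libraries in TAZ4SA, YAP5SA and YAP-TFE3 lay above all EV libraries. The EV values are near the floor, where 3 counts over the group correspond to 0.0446 CPM. No test is given for Slc2a3, values in EVsub, TFE3 and CAMTA1 are not given, and how many of all genes separate likewise was not counted. Since the gene was picked for its values, no result is drawn from them.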
